A study of Mus musculus and Homo sapiens with 24 samples.

Results

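Interferon-induced genes were read in K-562, an erythroleukaemic cell line that came from a patient with chronic myeloid leukaemia. The 9 genes were ISG15, IFI6, IFI27, IFITM1, IFITM2, IFITM3, IFIT1, STAT2 and IRF9. They were taken by name as a list of interferon response genes, and all 9 were found among the 58721 human genes of the count files. Polyadenylated RNA was sequenced from 4 groups with 3 libraries each: wild-type (WT) or TET2 knockout (KO) cells, each carrying either a control short hairpin RNA (shControl) or a hairpin against MBD6 (shMBD6). TET2 is a dioxygenase that oxidises 5-methylcytosine in DNA and RNA, and MBD6 is a methyl-CpG-binding domain protein that the study relates to methylated RNA on chromatin. The hairpins were delivered by lentivirus, and all 4 groups were grown in serum-containing medium with puromycin. No interferon was added according to the labels. The WT and KO cells are separate lines, so the genotype and other differences between the lines cannot be told apart, and MBD6 was targeted with a single hairpin. The labels do not say whether the 3 libraries of a group came from separate cultures, so p-values measure the spread between these libraries, which may be technical.

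The 12 K-562 libraries held 27625013 to 39877202 gene counts. MBD6 fell from 82.5 ± 5.60 CPM (read counts relative to the scaled library total, mean ± SD, n = 3) to 38.0 ± 1.09 with the hairpin in WT cells, and from 77.2 ± 4.59 to 43.3 ± 0.800 in KO cells. These levels are scaled by TMM, relative to the other genes of a library. Scaled to the ERCC spike-in RNA, MBD6 had 42.0, 45.2 and 39.9 CPM with shControl and 43.98, 43.7 and 41.4 with shMBD6 in WT cells, which overlapped, and 87.3, 93.8 and 104 against 60.9, 61.6 and 58.4 in KO cells, so on that scale the libraries with the hairpin were lower in KO cells and not in WT cells. TET2 had 30.8 ± 2.63, 35.4 ± 2.19, 33.3 ± 0.688 and 31.8 ± 0.815 CPM in WT shControl, WT shMBD6, KO shControl and KO shMBD6, so its counts do not check the knockout label. Over the 12 libraries, the erythroid marker HBG2 had 486399 counts, TFRC 135395 and HBE1 177, so a sum of these markers weighs HBG2 most. All 10 erythroid marker genes were detected. Their summed level was 2537 to 2639 CPM in WT shControl, 3270 to 3593 in WT shMBD6, 1418 to 1476 in KO shControl and 1351 to 1354 in KO shMBD6, so it differed between the groups compared below. The 5 megakaryocyte markers, of which ITGA2B alone passed the filter, summed to 98.6 to 104 CPM, 67.2 to 67.5, 43.9 to 50.0 and 51.1 to 54.1 in the same order. Reads outside any gene made up 10.8% to 10.998% in WT shControl, 11.8% to 12.1% in WT shMBD6, 13.2% to 13.8% in KO shControl and 10.4% to 10.7% in KO shMBD6. The part of these differences in the results on interferon genes was not tested. In bulk RNA, fewer cells of a type and less RNA per cell cannot be told apart. The 5 plasmacytoid dendritic cell markers summed to 34.1 to 43.6 CPM over the libraries, nearly all of it from TCF4, with LILRA4 and IL3RA at 0 counts. IL3RA lies in a pseudoautosomal region, where reads can lack a unique place.

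Type I interferons bind the receptor IFNAR1/IFNAR2, whose kinases TYK2 and JAK1 phosphorylate STAT2. STAT2 and the DNA-binding subunit IRF9 are parts of the complex ISGF3, which binds interferon-stimulated response elements (ISREs) upstream of its target genes. Many targets are antiviral effectors, and they include STAT2 and IRF9 themselves, so the pathway can raise its own components. Interferon gamma acts through a different element, the GAS.

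The sequences just upstream of these genes are shown because ISGF3 acts through an element there in many interferon-induced genes. GENCODE gives the canonical start of each gene, and the 300 bases before it were read from hg38 on the gene's strand. An ISRE-like match was defined as GAAANNGAAA or, on the other strand, TTTCNNTTTC. Such a match lay upstream of 6 of the 9 genes, against 3.45% of the promoters of 20046 protein-coding genes, and the genes had been chosen as interferon-induced. The matches are in capitals in the stretches below, which are written 5′ to 3′.
ISG15 (hg38, chr1:1013364-1013419, plus strand): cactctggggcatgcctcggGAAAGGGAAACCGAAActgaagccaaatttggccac
IFI6 (hg38, chr1:27672256-27672368, minus strand): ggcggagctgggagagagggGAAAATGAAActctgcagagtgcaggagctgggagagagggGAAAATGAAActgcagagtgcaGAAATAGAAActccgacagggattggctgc
IFI27 (hg38, chr14:94110608-94110670, plus strand): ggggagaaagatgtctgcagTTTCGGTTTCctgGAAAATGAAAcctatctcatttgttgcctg
IFITM3 (hg38, chr11:320866-320932, minus strand): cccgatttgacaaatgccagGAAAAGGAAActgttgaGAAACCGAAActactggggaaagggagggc
IFIT1 (hg38, chr10:89392487-89392549, plus strand): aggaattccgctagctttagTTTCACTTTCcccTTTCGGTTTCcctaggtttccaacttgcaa

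ISG15 held 2 overlapping matches, IFI6 held 3, and IFI27, IFITM3 and IFIT1 held 2 each. IFITM1 held 1 match, GAAATAGAAA, at 40 to 31 bases before its start. No match was found in the window of IFITM2, STAT2 or IRF9, which says only that these letters are not there. Across all annotated starts, a match lay upstream of 0 of 19 for IFITM2, 1 of 29 for STAT2 and 0 of 56 for IRF9. Among the genes with a match in the window it was 1 of 3 for ISG15, 1 of 10 for IFITM1 and 4 of 17 for IFITM3. It was 4 of 4 for IFI6, 8 of 11 for IFI27 and 2 of 2 for IFIT1. The palindromic GAS letters, TTCNNNGAA, lay in the windows of IFI27, IFITM1 and IRF9, against 7.12% of all promoters, and the GAS match of IFI27 overlaps its ISRE-like matches.

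The 9 genes did not move as a block. In KO against WT cells with shControl, IFITM2 was higher and ISG15, IFI6, IFITM3 and STAT2 were lower. With shMBD6 in WT cells, IFI6 and IFITM3 were higher and ISG15 and STAT2 lower, whereas in KO cells the same hairpin went with higher ISG15, IFI6, IFITM1, IFITM2, IFITM3 and STAT2 and with no lower member. These are calls of edgeR's quasi-likelihood test at a Benjamini-Hochberg adjusted p under 0.05 over all 17936 genes tested, with all 12 libraries in 1 fit. Directions are relative to the other genes of a library, since libraries were scaled by TMM. Scaling to the ERCC spike-in RNA instead moved the median log2 difference of all genes by 1.26 for KO with shControl, 0.30 for KO with shMBD6, 1.14 for shMBD6 in WT, 0.18 for shMBD6 in KO and -0.96 for the interaction. On that scale ISG15, IFI6, IFITM3 and STAT2 changed sign for KO with shControl, as did ISG15 and STAT2 for shMBD6 in WT. The directions of the 6 calls for shMBD6 in KO cells were kept. The spike-in share was 0.876% of gene counts in WT shControl against 0.395%, 0.372% and 0.321% in WT shMBD6, KO shControl and KO shMBD6.

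**Figure D1:**
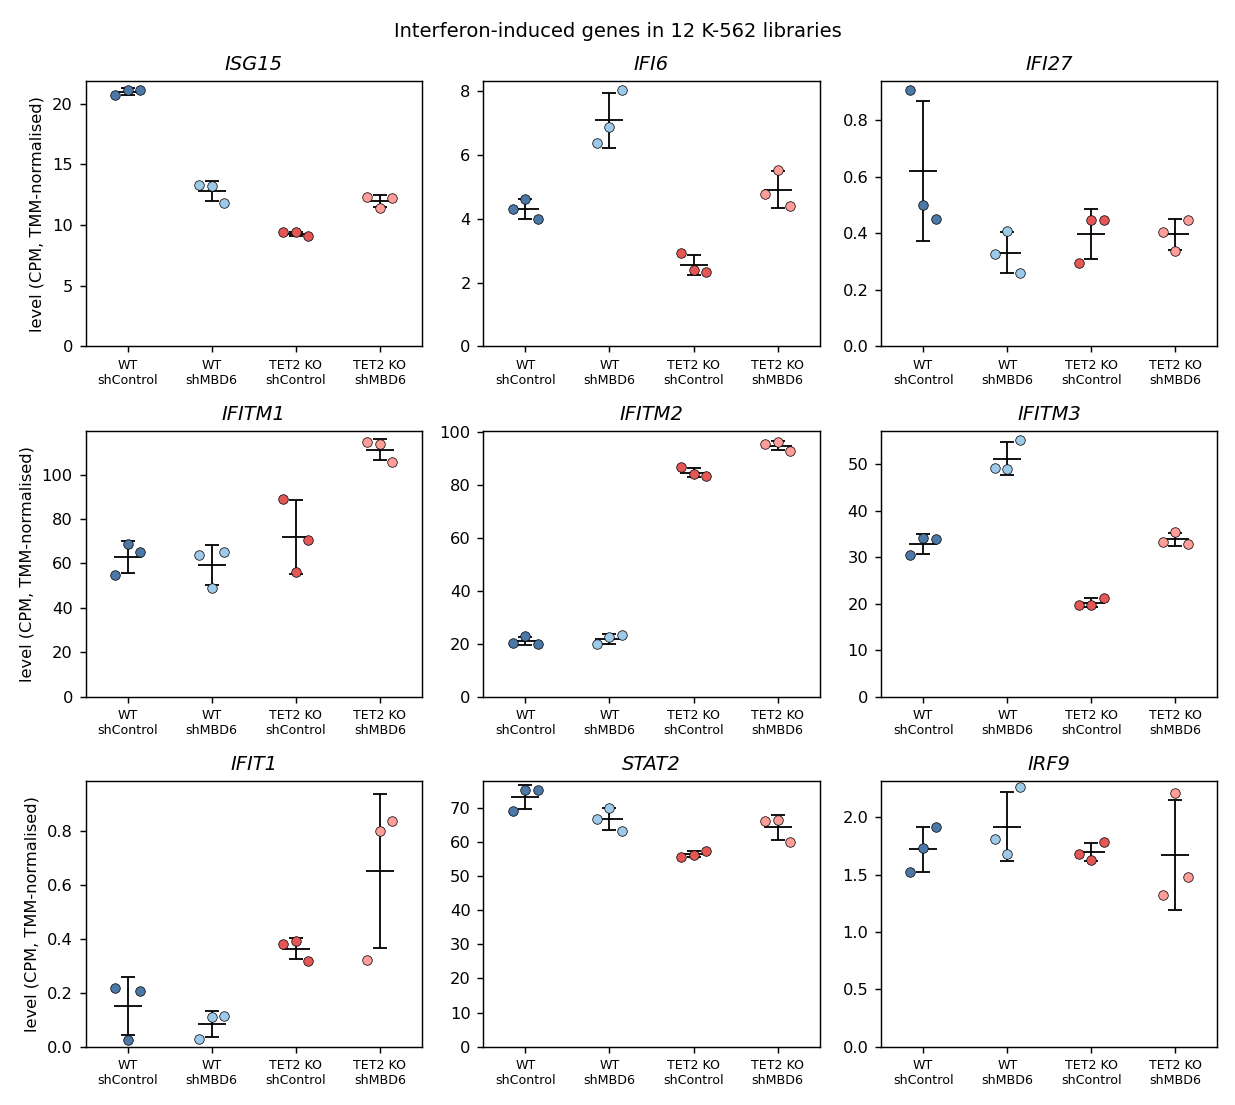
Levels of the 9 interferon-induced genes in each of the 12 K-562 libraries, in TMM-normalised CPM on the vertical axis, by group on the horizontal axis; points are libraries and bars are group means with their SD. IFITM2 lies between 83.3 and 96.3 CPM in the KO libraries and between 19.8 and 23.4 CPM in the WT libraries.

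Many genes changed in these comparisons, and the counts for the 9 genes are read against that background. For KO against WT with shControl, 1 was called higher and 4 lower, where 22.2% of all tested genes were called higher and 20.7% lower. For KO against WT with shMBD6, 3 were higher and 2 lower (background 22.9% and 21.6%). IFIT1, 1 of the higher genes, passed the filter on low counts through its KO libraries, so its call is not read as a result. The other higher genes were IFITM1 and IFITM2. For shMBD6 in WT cells, 2 were higher and 2 lower (background 20.4% and 19.2%). For shMBD6 in KO cells, 6 were higher and 0 lower (background 18.5% and 16.3%). The median log2 difference of the 9 genes was -0.38, -0.05, -0.09 and 0.37 in these comparisons, where that of all tested genes lay at 0.00, 0.01, -0.01 and 0.00. The comparisons share groups and are not independent of each other.

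**Figure D2:**
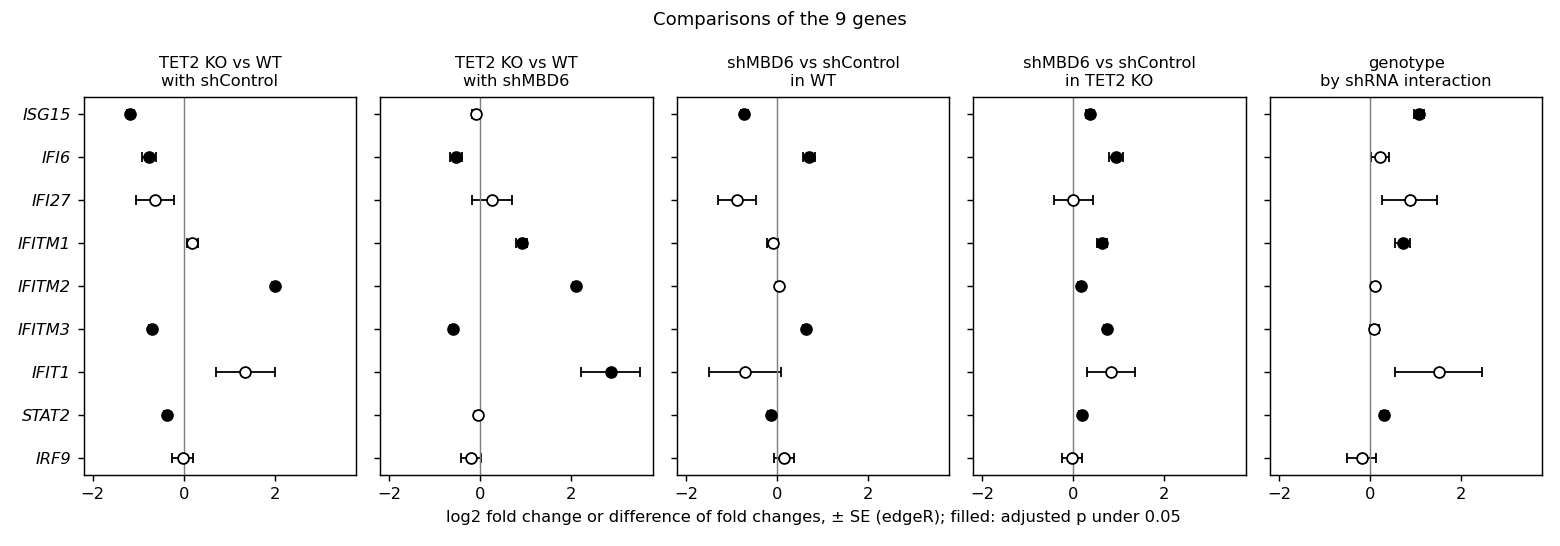
Log2 differences of the 9 genes in each comparison, and of the genotype by shRNA interaction, on a horizontal log2 axis under TMM scaling. Bars are ± SE from the edgeR fit and filled points passed the test. IFIT1 is filled for KO against WT with shMBD6, but it passed the low-count filter through its KO libraries and is not read as a result. IFITM2 stands at 2.00 and 2.11 for KO against WT, and ISG15 at -1.17 with shControl and -0.09 with shMBD6; under spike-in scaling ISG15 changed sign in both, to 0.08 and 0.21.

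STAT2 (ENSG00000170581.13, protein-coding, hg38 chromosome 12, 56341597 to 56360203, minus strand) supplies the transactivating subunit of ISGF3. Its levels were 69.1, 75.2 and 75.2 CPM in WT shControl, 66.8, 69.9 and 63.3 in WT shMBD6, 55.7, 56.2 and 57.5 in KO shControl and 66.3, 66.5 and 60.0 in KO shMBD6. All KO shControl libraries were lower than all others, and WT shMBD6 overlapped both remaining groups. Under TMM, STAT2 was 1.30-fold lower in KO than in WT cells with shControl (log2 -0.38, SE 0.0515, adjusted p = 4.09e-06). Under spike-in scaling it was higher in KO cells, by 0.88 on the log2 scale. With shMBD6 the genotypes differed by -0.05 (95% interval -0.16 to 0.05). The hairpin went with a fall of 0.14 on the log2 scale in WT cells (adjusted p = 0.0391), where the groups overlapped, and with a rise of 0.19 in KO cells (adjusted p = 0.00744). The WT value lost its call in 4 of 12 fits that left out 1 library, with adjusted p up to 0.193. Under spike-in scaling it was a rise, with a log2 difference of 1.00.

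IRF9 (ENSG00000213928.8, protein-coding, hg38 chromosome 14, 24161234 to 24168043, plus strand) gives ISGF3 its DNA contact. It had 1.52, 1.73 and 1.91 CPM in WT shControl, 1.82, 1.68 and 2.26 in WT shMBD6, 1.68, 1.63 and 1.78 in KO shControl and 1.32, 2.22 and 1.48 in KO shMBD6, which is 42 to 78 counts per library. The groups overlapped and no comparison passed the test under TMM. Under spike-in scaling the log2 difference was 1.23 for KO with shControl, 1.29 for shMBD6 in WT and -1.14 for the interaction, and all 3 passed edgeR's test. The 95% interval for KO against WT with shControl, -0.49 to 0.44, does not exclude a change of the size seen for STAT2. The low count has a limit of its own: 92.8% of the 50-base windows of the canonical IRF9 transcript also lie in an annotated RNF31-IRF9 readthrough gene (ENSG00000259529.1), which had group means of 0.857 to 1.37 CPM. Reads that fall in both genes are ambiguous to a gene counter, so the level of IRF9 is uncertain.

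ISG15 (ENSG00000187608.9, protein-coding, hg38 chromosome 1, 1001138 to 1014540, plus strand) encodes a ubiquitin-like protein that is conjugated to other proteins during the antiviral response. It had 20.7, 21.1 and 21.2 CPM in WT shControl, 13.3, 13.2 and 11.8 in WT shMBD6, 9.39, 9.39 and 9.11 in KO shControl and 12.3, 11.4 and 12.2 in KO shMBD6. WT shControl was the highest group and KO shControl the lowest, with no overlap, while the 2 shMBD6 groups overlapped. Under TMM, ISG15 was 2.26-fold lower in KO than in WT cells with shControl (log2 -1.17, SE 0.0792, adjusted p = 1.25e-10), against 0.08 under spike-in scaling. With shMBD6 the difference was -0.09 (95% interval -0.26 to 0.07, adjusted p = 0.371). The hairpin went with a 1.64-fold fall in WT cells (adjusted p = 2.69e-07), which was a log2 difference of 0.42 under spike-in scaling, and with a 1.29-fold rise in KO cells (adjusted p = 0.00132). Tested directly, KO minus WT of the shMBD6 effect was 1.08 on the log2 scale (SE 0.112, adjusted p = 6.34e-07). Under spike-in scaling this interaction was 0.12, with an edgeR adjusted p of 0.359.

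IFI6 (ENSG00000126709.14, protein-coding, hg38 chromosome 1, 27666064 to 27672212, minus strand) encodes a small membrane protein with antiviral activity. It had 4.31, 4.62 and 4.00 CPM in WT shControl, 6.37, 6.87 and 8.03 in WT shMBD6, 2.92, 2.41 and 2.32 in KO shControl and 4.79, 5.54 and 4.41 in KO shMBD6. In each genotype the shMBD6 libraries were all higher than the shControl libraries. The rise with the hairpin was 1.64-fold in WT cells (log2 0.71, SE 0.136, adjusted p = 0.000268) and 1.92-fold in KO cells (log2 0.94, SE 0.146, adjusted p = 3.65e-05). The difference between these effects was 0.23 (95% interval -0.19 to 0.65) and did not pass the test. Under spike-in scaling it was -0.73 and passed (edgeR adjusted p = 0.00241). KO cells had less IFI6 than WT cells with either hairpin, by -0.76 with shControl (0.49 under spike-in scaling) and by -0.53 with shMBD6 (-0.23 under spike-in scaling, where edgeR's adjusted p was 0.145). Of the 50-base windows of the IFI6 transcript, 21.9% lie in the overlapping LINC02574.

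IFI27 (ENSG00000165949.12, protein-coding, hg38 chromosome 14, 94104836 to 94116695, plus strand), a relative of IFI6, was close to the lower limit of these libraries. It had 25, 20 and 13 counts in WT shControl, 11, 15 and 9 in WT shMBD6, 10, 16 and 14 in KO shControl and 15, 11 and 16 in KO shMBD6. On the CPM scale WT shControl had 0.620 ± 0.249 and the other groups 0.332 to 0.396. No comparison passed the test, and the interval for shMBD6 in WT cells, -1.76 to 0.01 on the log2 scale, is wide at these counts.

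IFITM1, IFITM2 and IFITM3 encode related membrane proteins that block the entry of enveloped viruses, and they are neighbours on chromosome 11. IFITM2 (ENSG00000185201.16, hg38 chromosome 11, 303655 to 309397, plus strand) showed the largest difference between the genotypes among the 9 genes with shControl. It had 20.4, 22.9 and 19.8 CPM in WT shControl, 19.8, 22.7 and 23.4 in WT shMBD6, 86.7, 84.2 and 83.3 in KO shControl and 95.5, 96.3 and 93.1 in KO shMBD6. Every KO library was above every WT library. IFITM2 was 4.01-fold higher in KO cells with shControl (log2 2.00, SE 0.0607, adjusted p = 3.31e-16) and 4.32-fold higher with shMBD6 (log2 2.11, SE 0.0598, adjusted p = 1.10e-16). The hairpin made a difference of 0.06 in WT cells (95% interval -0.08 to 0.19), and of 1.20 under spike-in scaling (edgeR adjusted p = 9.39e-15). In KO cells it went with a rise of 0.16 (adjusted p = 0.0238), a call that was lost in 5 of 12 fits that left out 1 library, with adjusted p up to 0.102.

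IFITM3 (ENSG00000142089.15, hg38 chromosome 11, 319676 to 329475, minus strand) went the other way between the genotypes. It had 30.4, 34.1 and 34.0 CPM in WT shControl, 49.3, 49.1 and 55.3 in WT shMBD6, 19.8, 19.6 and 21.3 in KO shControl and 33.3, 35.5 and 32.8 in KO shMBD6. WT shControl and KO shMBD6 overlapped, with WT shMBD6 above both and KO shControl below both. Under TMM, IFITM3 was 1.62-fold lower in KO cells with shControl (log2 -0.70, SE 0.0682, adjusted p = 3.52e-08; 0.56 under spike-in scaling) and 1.51-fold lower with shMBD6 (log2 -0.60, adjusted p = 1.51e-07). shMBD6 went with a 1.56-fold rise in WT cells and a 1.67-fold rise in KO cells (adjusted p = 1.22e-07 and 3.49e-08). The difference between these 2 effects was 0.10 (95% interval -0.09 to 0.30). Under spike-in scaling it was -0.86 and passed (edgeR adjusted p = 3.31e-08).

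IFITM1 (ENSG00000185885.15, hg38 chromosome 11, 310041 to 315272, plus strand) stood apart from both neighbours. It had 54.8, 68.6 and 65.0 CPM in WT shControl, 63.7, 48.8 and 65.1 in WT shMBD6, 88.9, 56.0 and 70.6 in KO shControl and 114.5, 113.7 and 105.6 in KO shMBD6. Only KO shMBD6 was separate from the other groups, which overlapped each other. IFITM1 was 1.55-fold higher with shMBD6 in KO cells (log2 0.63, SE 0.117, adjusted p = 0.000248), against -0.09 in WT cells (95% interval -0.34 to 0.16). The difference between these effects was 0.72 (SE 0.168, adjusted p = 0.00377), which was -0.23 under spike-in scaling. KO against WT with shControl gave 0.19 (adjusted p = 0.220). Over the fits that left out 1 library it ran from 0.0037 (adjusted p = 0.984, without replicate 1 of KO shControl) to 0.34 (adjusted p = 0.0176, without replicate 2 of KO shControl). It also passed in edgeR without the low-count filter (0.19, adjusted p = 0.00137) and under spike-in scaling (1.44, adjusted p = 5.05e-12). The IFITM genes share sequence: 55.1%, 12% and 20.8% of the 50-base windows of the canonical IFITM1, IFITM2 and IFITM3 transcripts also occur in another gene, so their levels are uncertain where reads could fit both.

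IFIT1 (ENSG00000185745.9, protein-coding, hg38 chromosome 10, 89392546 to 89406487, plus strand) encodes a protein that binds viral RNA. It had 6, 1 and 6 counts in WT shControl, 1, 4 and 4 in WT shMBD6, 13, 14 and 10 in KO shControl and 12, 26 and 30 in KO shMBD6. Every KO library held more counts than any WT library. Since IFIT1 passed the filter on low counts through these KO libraries, its difference between the genotypes is given here as counts. Its call for KO against WT with shMBD6, counted above, is not read as a result. For shMBD6 against shControl the 95% interval of the log2 difference was -2.34 to 0.96 in WT cells and -0.28 to 1.93 in KO cells, and neither passed.

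The neighbouring IFIT2 and IFIT3 can be set beside IFIT1. IFIT2 had 0.401 ± 0.0441, 0.144 ± 0.0611, 0.924 ± 0.318 and 1.29 ± 0.0875 CPM in WT shControl, WT shMBD6, KO shControl and KO shMBD6. IFIT3 had 2.06 ± 1.00, 1.23 ± 0.426, 7.48 ± 0.494 and 6.51 ± 0.174 CPM in the same order. Both were higher in KO cells, IFIT3 by 3.55-fold with shControl and 5.30-fold with shMBD6, and IFIT2 by 2.31-fold and 8.83-fold. IFIT2 had 282 counts over all 12 libraries, and its 8.83-fold value rests on the 0.144 CPM of WT shMBD6.

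**Figure D3:**
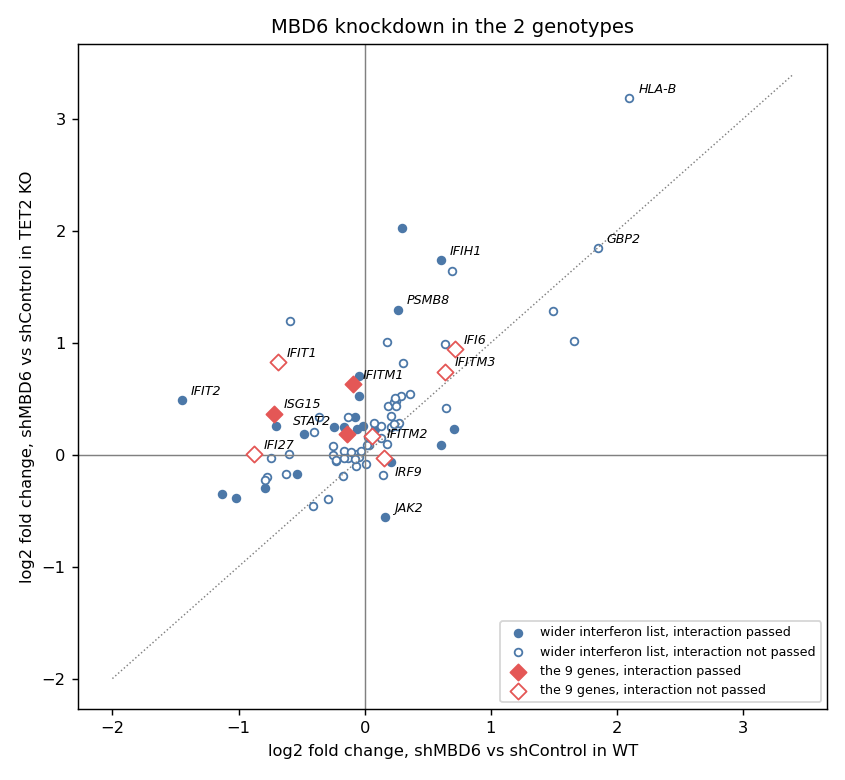
Log2 difference of shMBD6 against shControl in WT cells (horizontal axis) and in KO cells (vertical axis) under TMM scaling. Red diamonds are the 9 genes and blue circles the tested genes of the wider interferon list, filled where the interaction passed the test, and the dotted line marks equal effects. ISG15 and STAT2 are on opposite sides of 0 in the 2 genotypes, and IFI6 and IFITM3 are above 0 in both; under spike-in scaling ISG15 and STAT2 are above 0 in both, at 0.42 and 1.00 in WT cells.

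Under TMM, the response to shMBD6 was not the same in both genotypes for 3 of the 9 genes, ISG15, IFITM1 and STAT2. For this interaction 10.3% of all tested genes were called higher and 11% lower. All 3 values were positive, which under TMM means a more positive effect of the hairpin in KO than in WT cells. IFIT1 had the largest value under TMM, 1.52, with a 95% interval of -0.48 to 3.51. For STAT2 the interaction was 0.32 (SE 0.0724, adjusted p = 0.00277), and -0.64 under spike-in scaling. On the spike-in scale edgeR's interaction passed for STAT2, IFI6 (-0.73), IFITM2 (-0.85), IFITM3 (-0.86) and IRF9 (-1.14), and not for ISG15 or IFITM1. Of all 17936 genes tested, 13321 were called on that scale, 13265 of them lower.

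**Figure D4:**
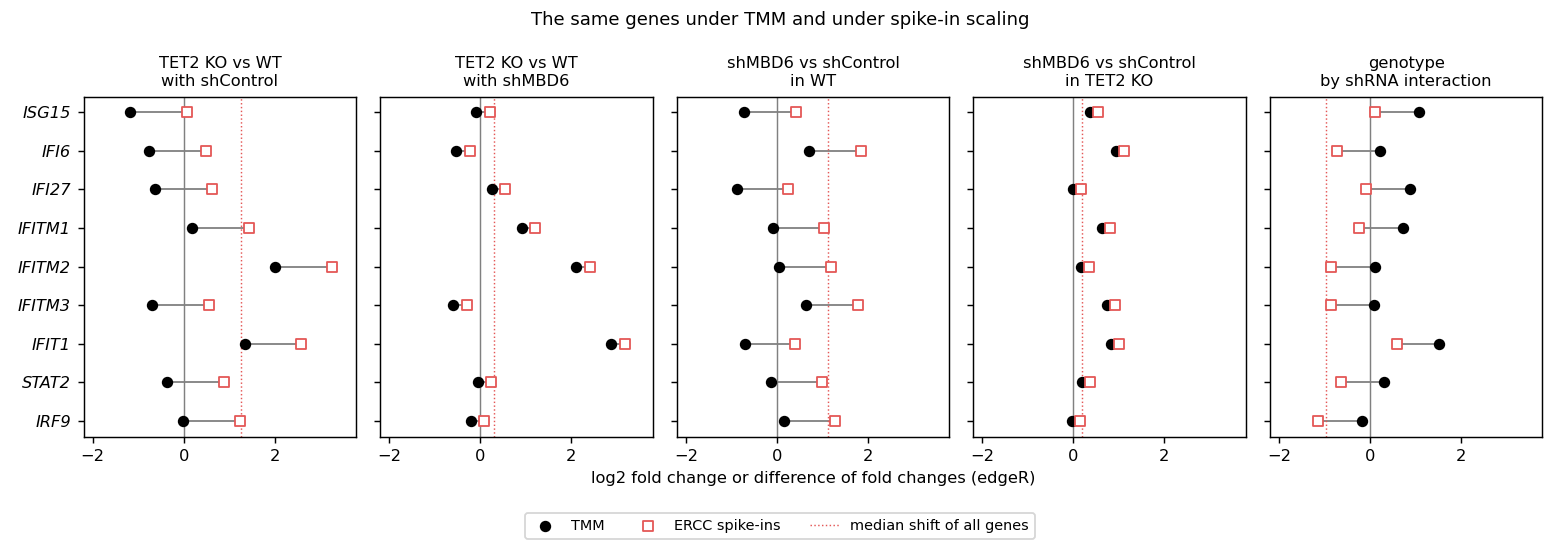
Log2 differences of the 9 genes under TMM scaling and under ERCC spike-in scaling (squares), on a horizontal log2 axis with 1 panel per comparison; the dotted line is the median shift of all genes. Spike-in scaling shifts the median of all genes by 1.26 for KO with shControl and by 1.14 for shMBD6 in WT cells, and moves each of the 9 genes with it.

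Levels of different genes were compared per kilobase of exon. In WT shControl, IFITM1 led with 37.7 CPM per kb, followed by ISG15 with 24.2, IFITM2 with 13.1 and IFITM3 with 11.5. In KO shControl IFITM2 had 52.8 and IFITM1 43.1, but by the longest transcript they had 84.3 and 85.1. STAT2 and IFI6 were in the middle in every group, and IRF9, IFI27 and IFIT1 had the 3 lowest values in every group. The order of the upper genes depends on the length used. IFITM3 was second in WT shControl by the longest transcript, with 31.4 CPM per kb, and with the canonical transcript, a length chosen after the data were seen, with 53.7.

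Upstream of these genes, the pathway was read from a wider list of 117 genes, of which 78 passed the filter. Interferon ligands were at or near the limit of detection: 19 of 21 had 0 counts in all 12 libraries, and the other 2 had 5 counts in total. Subunits of the type I and gamma receptors were present. IFNAR1 had 60.9 ± 3.45, 58.5 ± 1.44, 58.5 ± 3.57 and 58.6 ± 2.197 CPM in WT shControl, WT shMBD6, KO shControl and KO shMBD6, and IFNAR2 had 6.91 ± 1.07, 6.96 ± 1.07, 9.06 ± 0.277 and 8.55 ± 0.682. The gamma receptor subunits IFNGR1 and IFNGR2 had 21.5 to 24.0 and 13.6 to 15.7 CPM as group means. IL10RB, a subunit of the lambda receptor, had 0.919 to 1.37. IFNLR1, the other lambda subunit, had 15 counts over all 12 libraries and did not pass the filter.

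Of the kinases, JAK1 had 170 ± 7.11, 205 ± 8.48, 133 ± 5.45 and 161 ± 5.25 CPM, and TYK2 had 123 ± 2.75, 121 ± 2.70, 101.1 ± 8.18 and 103 ± 2.87. JAK2, which serves the gamma receptor, had 57.5 ± 3.13, 64.2 ± 4.30, 66.4 ± 4.78 and 45.2 ± 2.67. It was 1.47-fold lower with shMBD6 in KO cells (adjusted p = 5.95e-07). The interferon regulatory factors IRF1 and IRF7 had 23.1 ± 1.29, 26.2 ± 0.231, 23.0 ± 1.63 and 31.2 ± 1.75 CPM, and 2.96 ± 0.562, 1.70 ± 0.587, 2.18 ± 0.0985 and 1.87 ± 0.366. USP18, which removes ISG15 from proteins and restrains the receptor, had 8.48 ± 1.09, 10.1 ± 0.674, 7.77 ± 1.14 and 10.5 ± 0.815.

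Across the 78 tested genes of the wider list, 20 were called higher and 21 lower in KO cells with shControl, and 31 higher and 12 lower with shMBD6. For the hairpin, 22 were higher and 17 lower in WT cells, and 31 higher and 5 lower in KO cells. The share called was 52.6%, 55.1%, 50.0% and 46.2%, where 42.8%, 44.5%, 39.6% and 34.8% of all genes were called. The interaction was called for 19 higher and 5 lower, 30.8% against 21.3% of all genes. The median log2 difference of the list was -0.06 and 0.13 for KO against WT with shControl and with shMBD6, 7.3e-05 and 0.23 for shMBD6 in WT and in KO cells, and 0.20 for the interaction. Under spike-in scaling 13265 of the 13321 genes called for the interaction were lower.

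Antiviral effectors were the largest class, with 33 tested genes. In KO cells with shControl 10 were higher and 9 lower (all genes: 22.2% and 20.7%). MX2, a GTPase that blocks nuclear entry of viruses, was 2.28-fold higher and SAMD9L 2.18-fold higher, while EPSTI1 was 29.6-fold lower, from 11.9 ± 1.99 to 0.398 ± 0.111 CPM. OAS3, which makes the activator of RNase L, was 1.83-fold lower, with a log2 difference of 0.39 under spike-in scaling. With shMBD6, 16 effectors were higher in KO cells and 5 lower (all genes: 22.9% and 21.6%). XAF1 was 3.34-fold higher and EPSTI1 18.1-fold lower. The counts of EPSTI1 in KO cells were 7 to 22 per library.

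For the hairpin itself, GBP2, a guanylate-binding protein, rose in both genotypes. It had 3.08 ± 0.0420 and 11.1 ± 0.268 CPM in WT cells with shControl and shMBD6, and 3.70 ± 0.414 and 13.3 ± 0.643 in KO cells. The rise was 3.60-fold and 3.59-fold (adjusted p = 4.74e-11 and 2.69e-11). In WT cells ISG20, an RNA exonuclease, fell 2.19-fold, IFI16, a DNA sensor, fell 2.03-fold and IFI27L1 fell 1.73-fold under TMM, against log2 values of 0.0050, 0.12 and 0.35 under spike-in scaling. In KO cells GBP1 rose 3.12-fold and IFIH1, the RNA sensor MDA5, rose 3.34-fold, from 0.937 ± 0.0749 to 3.14 ± 0.189 CPM. PARP9 fell 1.32-fold and IFI16 1.31-fold there, and the call for IFI16 was lost in 2 of 12 fits that left out 1 library, with adjusted p up to 0.0724, and under DESeq2 (0.0767). Under spike-in scaling neither passed in edgeR, with -0.21 for each (adjusted p = 0.0887 for PARP9 and 0.124 for IFI16).

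Genes nearest in pattern to each member were sought among 4235 candidates. The measure was the root mean square difference of the 4 centred group means of log2 CPM. Candidates were protein-coding genes with a mean of at least 1 CPM whose group means spanned at least 0.5 on the log2 scale. The spans of STAT2 and IRF9 were 0.37 and 0.22, so genes as flat as these could not be listed. IFI6 and IFITM3 were the closest pair among the 9 genes, at 0.0713, and both had CDK20 among their 3 nearest genes. For IFITM2 the nearest gene was SH3KBP1 at 0.0176, with 15.1, 16.3, 62.1 and 69.8 CPM in the 4 groups, followed by LIPC and GRIK1. For ISG15 they were TAPBPL, ITGA2B, which is the tested megakaryocyte marker, and ZNF433, and for IFI6 CDK20, OCRL and KCNJ15. IFITM1 had MAGEC2, ENO2 and NBPF4, and IFITM3 had C11orf96, NRIP3 and CDK20. IFIT1 had ALOX5, MYO3B and CPS1, STAT2 had AMH, BRME1 and VPS9D1, IFI27 had DLX2, BLOC1S1 and UQCC5, and IRF9 had FANCB, PPP2R1B and TTC21B. With 4 group means, a close match describes these libraries only.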

How the data were processed

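The deposited values were raw read counts per gene and library, which the authors made from trimmed reads (Trimmomatic 0.39) aligned with HISAT2 2.2.1 to hg38 with ERCC sequences and counted with HTSeq 0.12.4. Whether counting used strand is not stated, so overlapping genes are uncertain. Summary rows without a gene were dropped from library totals; reads outside genes were 10.4% to 13.8% and ambiguous reads 4.01% to 4.33% of the reads. The 92 spike-in rows were kept apart, and the 12 mouse libraries of the series were not used. Columns of other samples numbered 0.

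Symbols and coordinates came from GENCODE 44 (hg38), matched on identifiers without version for 58207 genes (99.1%). The test was the quasi-likelihood F test of edgeR 4.0.16 under R 4.3.3, after filterByExpr and TMM scaling, with 1 coefficient per group, no replicate block and Benjamini-Hochberg adjustment over the 17936 genes that passed the filter. The common biological coefficient of variation was 0.0618. Levels are CPM scaled by TMM. Intervals are 95%. Replicate libraries differed by more than sampling noise (chi-square per degree of freedom 2.95 to 9.12). The procedure was tested on simulated data.

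The members and gene lists were chosen with earlier results of these data known, so no list was tested as a set. Named are all 9 members, the receptors and kinases, IRF1, IRF7 and USP18, MBD6 and TET2, per comparison up to 3 list genes called higher and 3 called lower with the largest change and at least 1 CPM in 1 group, and the 3 genes nearest in pattern. An item that the naming rule covers is not reported here. Other genes named, and the RNF31-IRF9 readthrough gene, were chosen after their values were seen. Alternatives were DESeq2 1.42.0, other scalings, no low-count filter, the 6 libraries compared alone, a replicate block and leaving out each library. The study used DESeq2 with a spike-in factor.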

Additional observations from a re-analysis of the deposited data

Results flagged for a closer look

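Under TMM scaling, the effect of shMBD6 differed between WT and KO cells, by a direct test of the interaction, for 3 of the 9 genes. On the spike-in scale STAT2 alone of these 3 passed, with the opposite sign, beside IFI6, IFITM2, IFITM3 and IRF9. The log2 interaction was 1.08 for ISG15, 0.72 for IFITM1 and 0.32 for STAT2 under TMM scaling, against 0.12, -0.23 and -0.64 under spike-in scaling.

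The same test differed for genes of the wider list. JAK2 had -0.72 and the inhibitor SOCS1 -0.52, with SOCS1 at 10.9 ± 0.380, 16.5 ± 1.26, 16.7 ± 0.646 and 17.6 ± 3.12 CPM in WT shControl, WT shMBD6, KO shControl and KO shMBD6. IFIH1 had 1.13. IFIT2, with 282 counts over all 12 libraries, had 1.94, and without replicate 3 of WT shMBD6 its edgeR adjusted p was 0.0523. PSMB8, an immunoproteasome subunit, had 1.03 and LY6E had -0.48. Each of these last values lost its call in 4 of 12 fits that left out 1 library, with adjusted p up to 0.0918 and 0.0878. Under spike-in scaling the edgeR interactions of IFIH1 (0.18, adjusted p = 0.573), IFIT2 (0.99, adjusted p = 0.136) and PSMB8 (0.077, adjusted p = 0.831) did not pass.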

How the results depend on the processing

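Spike-in (ERCC) scaling changed most. Log2 values that changed sign under it were, for KO against WT with shControl, ISG15 0.082, IFI6 0.49, IFI27 0.62, IFITM3 0.56, STAT2 0.88, IRF9 1.23 and OAS3 0.39, and with shMBD6, ISG15 0.21, STAT2 0.25 and IRF9 0.095. For shMBD6 in WT they were ISG15 0.42, IFI27 0.25, IFITM1 1.05, IFIT1 0.41, STAT2 1.00, ISG20 0.0050, IFI16 0.12 and IFI27L1 0.35, and in KO, IRF9 0.16. For the interaction they were IFI6 -0.73, IFI27 -0.073, IFITM1 -0.23, IFITM2 -0.85, IFITM3 -0.86 and STAT2 -0.64. Among values that kept their sign, IFI6 for KO with shMBD6 lost its call under it (-0.23). So did PARP9 and IFI16 for shMBD6 in KO (-0.21 each) and, for the interaction, ISG15 0.12, IFIT2 0.99, IFIH1 0.18 and PSMB8 0.077. Calls gained were IFITM1 1.44 for KO with shControl, IFITM2 1.20 and IRF9 1.29 for shMBD6 in WT, and IRF9 -1.14 for the interaction. IFIT1 for KO with shControl was 2.58, given with no test. Among values that changed sign, calls lost were ISG15 for KO with shControl, ISG20 and IFI16 for shMBD6 in WT and IFITM1 for the interaction. Calls gained there were IRF9 for KO with shControl, ISG15 and STAT2 for KO with shMBD6 and IFITM1 for shMBD6 in WT. For the interaction IFI6, IFITM2 and IFITM3 gained a call. The spike-in counts of calls were, for KO with shControl, 73 of the wider list and 16181 of all genes (15959 of them higher); for shMBD6 in WT, 7 of the 9 genes, 69 and 15475 (15437 higher); and for the interaction, 5 of the 9 genes, 54 and 13321. The cause was not tested. No other setting moved a count of calls by over 1.5 times. IFI27 for shMBD6 in KO, which is near 0, took values of -0.026 on total counts, -0.0033 without the low-count filter and -0.0070 with only the 6 libraries compared. The fall of STAT2 with shMBD6 in WT lost its call under DESeq2 (adjusted p = 0.0769), with DESeq2 size factors in edgeR (0.0526) and without the filter (0.0790). The rise of IFITM2 with shMBD6 in KO lost its call on total counts (0.0667). Leaving out 1 library turned the sign of IFI27 for shMBD6 in KO (-0.18 to 0.10), IFITM1 for shMBD6 in WT (-0.17 to 0.040), IRF9 for shMBD6 in KO (-0.28 to 0.12) and IRF9 for KO with shControl (-0.10 to 0.047), none of them called; where it left 2 libraries in a group the fit pools the spread of all groups. The depth limits IFIT1, IFI27 and IRF9, which had 1 to 78 counts per library.

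Replicate numbers did not pair the samples: of 18 same-numbered pairs 0 correlated above 0.1 (-0.0276 to 0.0169). With the replicate block, IFI27 for shMBD6 in KO was -0.00058, and no call among the members or the named list genes changed.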

Other observations

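Genes of antigen presentation by MHC class I, 12 of which passed the filter, were not described above. With shMBD6 in KO cells 8 were called higher and 0 lower, beside 18.5% and 16.3% of all genes; in WT cells 3 were higher and 0 lower, beside 20.4% and 19.2%. B2M, the invariant chain, had 56.1 ± 3.44, 53.3 ± 1.72, 60.3 ± 2.68 and 76.0 ± 3.38 CPM in WT shControl, WT shMBD6, KO shControl and KO shMBD6. PSMB8 had 5.25 ± 1.16, 6.30 ± 0.437, 0.516 ± 0.203 and 1.29 ± 0.175, and was 9.97-fold lower in KO cells with shControl and 4.89-fold lower with shMBD6. PSMB9, its neighbour in the immunoproteasome, was 2.03-fold higher in KO cells with shControl (edgeR adjusted p = 0.040). With shMBD6 in WT cells PSMB9 was 3.16-fold higher. HLA-B had 14 to 32 counts in WT shControl, 73 to 116 in WT shMBD6, 0 to 2 in KO shControl and 2 to 11 in KO shMBD6.

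The summed level of the fibroblast markers was low throughout, but it differed with the hairpin and between the genotypes. It was 1.85 to 2.26 CPM in WT shControl, 10.6 to 11.9 in WT shMBD6, 3.98 to 4.89 in KO shControl and 6.05 to 7.33 in KO shMBD6. Over the 12 libraries COL1A1 had 1754 counts, COL3A1 322, COL1A2 283, DCN 141, PDGFRB 55 and LUM 6, so the sum weighs COL1A1 most.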
